A study of Mus musculus with 6 samples.

Results

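The genes described here are 10 members of the transforming growth factor beta (TGF-beta) pathway, taken by exact symbol from a table of 27998 genes. They are the ligands Tgfb1, Tgfb2, Tgfb3 and Inhba, the receptors Tgfbr1, Tgfbr2 and Eng, the signal carrier Smad3, the inhibitory Smad7 and the target gene Tgfbi. They were followed across 12 cell classes of the mouse brain. Cells came from C57BL/6 mice aged 6 to 8 weeks, 24 h after middle cerebral artery occlusion (MCAO, which blocks a main artery of the forebrain and is used as a model of ischaemic stroke) or after a sham operation, with 3 droplet libraries in each group. All groups shared strain, age range, time and preparation, and the labels name no other allele or agent. All MCAO libraries carry the treatment label MCAO1. The labels do not say whether a library came from 1 animal, nor which part of the brain was taken, so the p-values below measure only the spread between libraries, which may be technical.

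TGF-beta is secreted in a latent form and has to be released before it can bind. The active ligand brings together a type II receptor and a type I receptor, which phosphorylates the receptor Smads. These enter the nucleus with Smad4, and Smad7 is among the genes they turn on and shuts the receptor down again. In the brain, TGF-beta signalling is known for keeping microglia, the resident macrophages, in their homeostatic state, and endoglin signalling for keeping blood vessels stable.

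The libraries held 25135690 to 42848023 UMIs (unique molecular identifiers, which count captured RNA molecules), and 52658 of 58528 barcodes were kept, 24763 from sham and 27895 from MCAO. Median UMIs per kept cell were 2325 to 2399 in sham and 2765 to 3404 in MCAO. Between 77 and 184 barcode sequences were shared by any of the 15 pairs of libraries. The papain and Percoll preparation yielded mostly vessel and immune cells: endothelial cells made up 51.7% ± 0.684 (SD, n = 3) of kept sham cells and 40.5% ± 1.10 of MCAO cells, and microglia 23.9% ± 0.778 and 21.5% ± 0.247. Class names rest on RNA markers and stand for "-like" cells. The tables of a class hold between 86522 UMIs (lymphocytes, sham replicate 1) and 11035432 (endothelial cells, MCAO replicate 1), and precision follows that depth.

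Levels are in CPM, the usual unit that sets the UMI count of a gene against the total of its class (scaled by the trimmed mean of M-values). Changes are log2 ratios of MCAO to sham with their standard error (SE), from edgeR's quasi-likelihood test on counts summed per library, and a gene was called when its p-value, adjusted by Benjamini-Hochberg over all genes tested in the class, was under 0.05. The classes were built from these same cells, so the order of levels between classes is a description without a test.

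**Figure D1:**
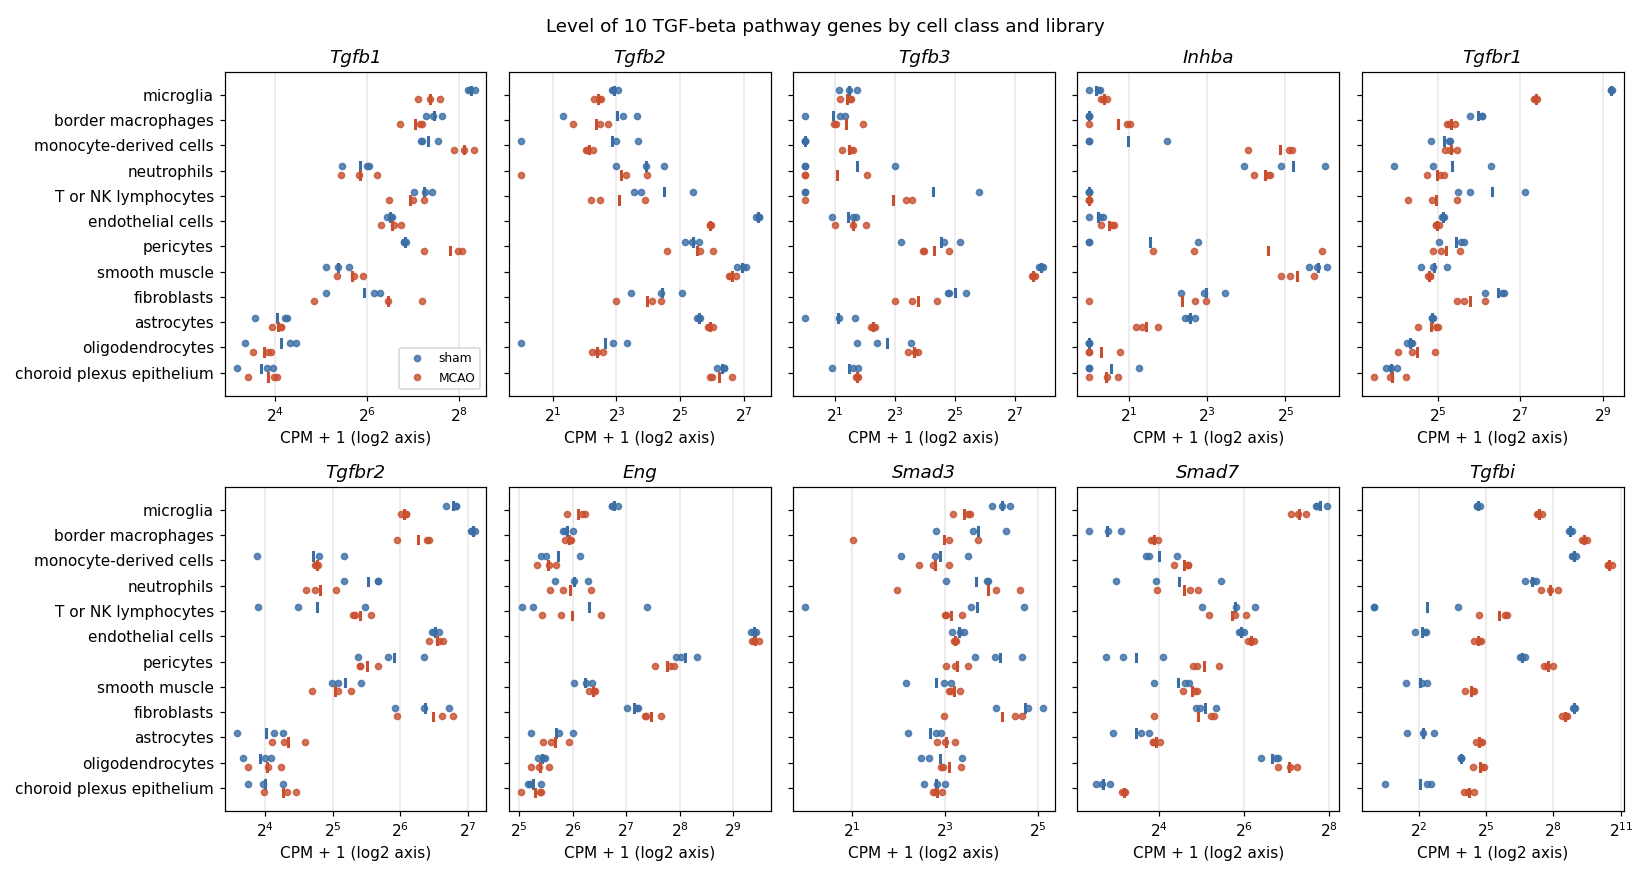
Level of each of the 10 genes in 12 cell classes, in CPM + 1 on a log2 axis. Points are the 3 sham (blue) and 3 MCAO (red) libraries and vertical ticks are group means. Tgfbr1 stands highest in microglia, Tgfb3 in smooth muscle and Eng in endothelial cells, and the MCAO points of Tgfbi lie to the right of the sham points in every class except fibroblasts.

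Across classes, the pathway split by cell type. With counts summed per class, microglia had 7 members lower and Tgfbi higher after MCAO, and monocyte-derived cells had Tgfb1, Inhba and Tgfbi higher. Endothelial cells had Tgfb2 lower, while Eng and Tgfbr2 did not pass. Sham and MCAO cells of these classes lay mostly in different clusters, as given below. In microglia clusters 2 and 4 fitted alone, Eng, Smad3, Smad7 and Tgfb2 were not called. In monocyte-derived cells, cluster 13 held 80.4% of MCAO cells, all of their Inhba UMIs and 0 sham cells. Tgfbi was not called in cluster 19 alone, the only one with sham cells. In microglia, 9 members were tested, of which 7 were lower and 1 higher after MCAO, in a class where 31.8% of all 11690 tested genes were called lower and 30.0% higher. The median change of those 9 members was -0.68, beside -0.04 over all tested genes. In endothelial cells, 2 members were higher and 1 lower of 9 tested, where 24.6% of all genes were called higher and 22.5% lower. In border macrophages (the macrophages of meninges, choroid plexus and perivascular spaces), 2 were higher and 3 lower of 6 tested, beside 16.0% and 13.5% of all genes. In monocyte-derived cells 3 of 7 were higher and 0 lower, beside 14.9% higher and 14.1% lower overall. In smooth muscle 1 was higher and 3 were lower of 10, beside 11.2% and 9.57%. Some of the higher members passed the count filter only through their MCAO counts. These were Inhba in monocyte-derived cells, Smad7 in border macrophages and Tgfbi in smooth muscle.

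Fewer members were called elsewhere. Pericytes, the contractile cells of capillaries, had 2 higher of 6 tested, where 8.21% of all genes were called higher and 6.49% lower. Oligodendrocytes had 2 higher of 7, where 11.2% were called higher and 9.82% lower. In 3 classes only Tgfbi was called, and it was higher: astrocytes (7 tested, background 9.50% higher and 7.12% lower), choroid plexus epithelium (8 tested, 7.25% higher and 6.49% lower) and neutrophils (3 tested, 14.2% higher and 12.5% lower). In astrocytes and choroid plexus epithelium, Tgfbi passed the count filter only through its MCAO counts. In fibroblasts 0 of 5 tested members were called, with 1.93% of all genes higher and 1.67% lower. In T or NK lymphocytes 0 of 3 were called, with 1.52% higher and 1.82% lower. Without the adjustment, 2 fibroblast members (Tgfbi and Tgfbr1) and 0 lymphocyte members had an edgeR p under 0.05, and DESeq2 called 0 in either class. These classes held 42 to 82 and 23 to 89 cells per library.

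**Figure D2:**
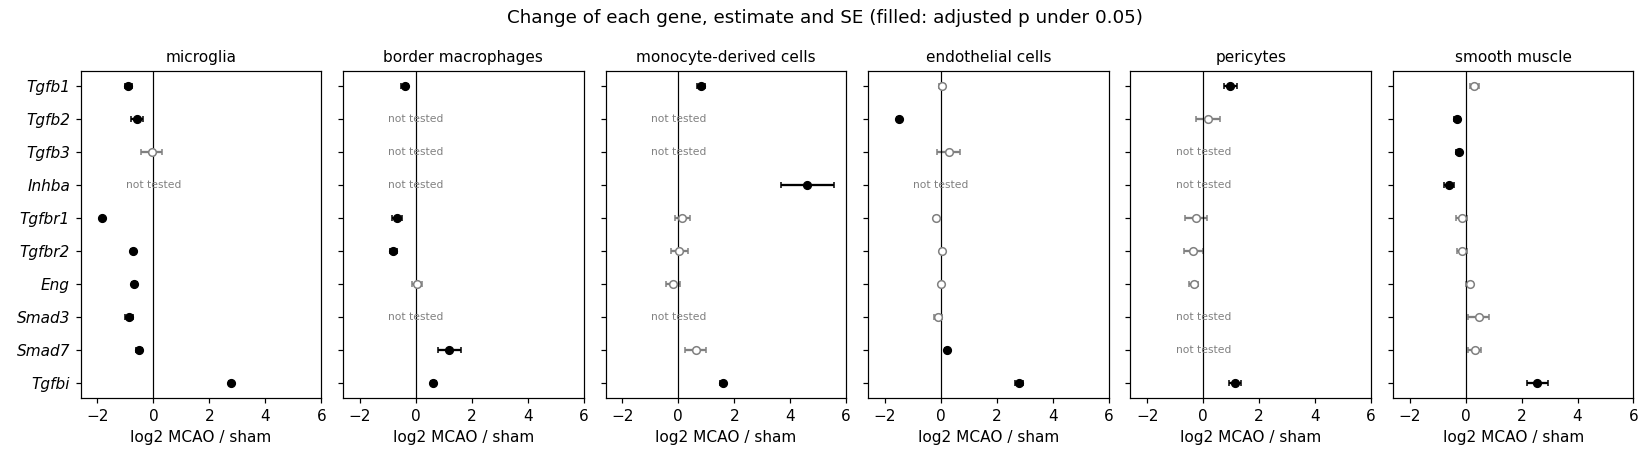
Change of each member in 6 classes, as the log2 ratio of MCAO to sham with its SE. Filled points had an adjusted p under 0.05 in edgeR's test, open points did not, and genes below the count filter are marked as not tested. In microglia all filled points except Tgfbi lie to the left of 0.

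Tgfb1, the ligand made by immune cells and endothelium (chr7:25687002-25705077 in GRCm38, plus strand, protein coding), was highest in microglia in sham and in monocyte-derived cells in MCAO, there within the library range of pericytes. In microglia it measured 321, 302 and 293 CPM in sham and 136, 163 and 192 CPM in MCAO, and the groups did not overlap. The change was -0.90 ± 0.13 on the log2 scale (edgeR, adjusted p = 0.00164). In monocyte-derived cells it moved the other way, from 186, 146 and 142 CPM to 235, 272 and 316 CPM, a rise of 0.80 ± 0.15 (edgeR, adjusted p = 0.000316). Both group ranges were again separate. A doubled doublet rate left 0 of the 45, 43 and 50 monocyte-derived cells in the sham libraries. It left 481, 443 and 374 of the 533, 499 and 386 in MCAO. The rises of Tgfb1, Inhba, Tgfbi and Thbs1 in monocyte-derived cells could therefore not be tested at that rate. The naming markers of border macrophages rose in this class, 5 of 5 tested, from a summed level of 65.3 to 80.2 CPM in sham to 1380 to 1645 CPM in MCAO. Of its own naming markers 8 of 10 were lower and 1 higher (38370 to 42260 CPM and 29440 to 30730 CPM). The part of these marker shifts in the rises of Tgfb1, Inhba, Tgfbi and Thbs1 in monocyte-derived cells was not tested. Pericytes rose from 114, 111 and 110.1 CPM to 149, 249 and 265 CPM (0.97 ± 0.25, edgeR adjusted p = 0.00604). The pericyte call rests on 47 UMIs in sham, and it ended without sham replicate 3 (adjusted p = 0.0569) and with a doubled doublet rate (0.74, adjusted p = 0.102).

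In border macrophages Tgfb1 fell from 195, 171 and 153 CPM to 105, 142 and 145 CPM (-0.40 ± 0.13, edgeR adjusted p = 0.0121). That call ended without sham replicate 1 (adjusted p = 0.11), without MCAO replicate 1 (0.133) and with DESeq2 (0.103). Endothelial cells measured 89.2 ± 3.68 CPM (SD, n = 3) in sham and 92.3 ± 13.9 CPM in MCAO and did not pass; without MCAO replicate 1, the lowest MCAO library, the rise of 0.16 was called (edgeR, adjusted p = 0.0411). The fall in microglia differed from the change in endothelial cells by -0.90 ± 0.06 (edgeR interaction, adjusted p = 5.249e-16), and the fall was present in 3 of 3 MCAO libraries. That interaction was called for 7 of 9 members tested, in a fit where 40.9% of all genes were called.

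Summed over all kept cells, Tgfb1 measured 126, 119 and 116 CPM in sham and 95, 117 and 128 CPM in MCAO and did not pass (log2 change -0.09 ± 0.12). The carriers of its RNA differed between the groups. Microglia held 54.0% ± 2.0 (SD, n = 3) of its UMIs in sham and 35.8% ± 0.473 in MCAO, while monocyte-derived cells held 1.71% ± 0.231 and 18.5% ± 0.489. These cells were 0.557% ± 0.00573 of kept sham cells and 5.09% ± 0.134 of MCAO cells, so the sum over all cells moves with the mix of cells as well as with the level in each class. In that sum 2 members were called higher and 6 lower of 10, where 28.7% of all genes were higher and 28.9% lower.

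Tgfb2, the ligand made by vessel wall, glia and epithelium (chr1:186622792-186705989, minus strand), was highest in endothelial cells in sham. It measured 175, 176 and 165 CPM in sham and 60.6, 59.7 and 61.1 CPM in MCAO, 3 libraries on each side with no overlap. The change was -1.51 ± 0.05 (edgeR, adjusted p = 7.322e-15). After MCAO the highest class was smooth muscle, at 97.2 ± 8.22 CPM, whose library range overlapped that of choroid plexus epithelium at 73.2 ± 20.5 CPM. Smooth muscle itself fell from 132, 124 and 109 CPM to 92.9, 92.0 and 107 CPM (-0.32 ± 0.11, edgeR adjusted p = 0.0272). The smooth muscle call ended with DESeq2 (adjusted p = 0.191), with a stricter mitochondrial limit (0.469) and without any 1 of 4 libraries (sham replicates 1 and 2, MCAO replicates 1 and 2; 0.0874 to 0.148).

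In microglia Tgfb2 was low, at 6.25, 7.21 and 6.41 CPM in sham and 4.77, 4.42 and 3.92 CPM in MCAO (-0.59 ± 0.20, edgeR adjusted p = 0.0173), a call that ended with DESeq2 (0.116), without sham replicate 2 (0.0696) and without the low-scoring microglia cluster (0.0549). Choroid plexus epithelium did not pass, and without MCAO replicate 3, its highest MCAO library, a fall of 0.35 was called (edgeR, adjusted p = 0.0183).

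Astrocytes went from 48.5, 47.1 and 45.3 CPM of Tgfb2 in sham to 57.7, 59.3 and 65.0 CPM in MCAO, groups that did not overlap but did not pass (0.37 ± 0.15, edgeR adjusted p = 0.0995). The endothelial change differed from the astrocyte change by -1.89 ± 0.15 (edgeR interaction, adjusted p = 5.94e-22). Tgfb2 was the only member of 10 tested whose change differed between those classes, where 9.51% of all genes were called. Endothelial cells held 77.2% ± 0.489 of all Tgfb2 UMIs in sham and 50.5% ± 4.30 in MCAO.

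Within the endothelial class the level of Tgfb2 differed by cluster. Most sham cells lay in clusters 0 and 3 (65.9% and 30.1% of the class) and most MCAO cells in clusters 1, 5 and 11 (51.4%, 27.5% and 11.7%), so the class change sets largely different clusters side by side. In sham, cluster 11, led by the arterial genes Bmx, Sema3g and Edn1, held 438 ± 17.5 CPM, cluster 3 held 285 ± 12.2 CPM and cluster 0 held 111 ± 1.15 CPM. In MCAO, cluster 11 held 119 ± 12.7 CPM, cluster 3 held 223 ± 11.5 CPM, cluster 0 held 83.1 ± 17.7 CPM, cluster 1 held 62.6 ± 3.15 CPM and cluster 5, led by Ch25h, Lrg1 and Ackr1, held 17.2 ± 3.88 CPM. Fitted alone, cluster 11 showed a change of -1.88 ± 0.12 (edgeR, adjusted p = 4.284e-15), and 1 member was higher and 2 were lower of 6 tested, where 13.5% of genes were called. Cluster 3 alone changed by -0.33 ± 0.10 (edgeR, adjusted p = 0.0198; 2 of 7 members called, background 7.57%). In cluster 0 alone the change of -0.41 ± 0.13 did not pass (edgeR, adjusted p = 0.0571; 2 of 8 called, background 6.90%). It did not pass in cluster 1 alone either, which held 22 to 30 cells in each sham library (-0.60 ± 0.38, edgeR adjusted p = 0.566; 1 of 8 called, background 1.77%). Cluster 11 also lost Tgfb1, by 0.98 ± 0.19 (edgeR, adjusted p = 0.000121), a fall that the whole class did not show.

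Tgfb3, the ligand of mural cells (chr12:86056745-86079041, minus strand), was carried by smooth muscle. It measured 232, 244 and 222 CPM there in sham and 187, 194 and 204 CPM in MCAO, against at most 40.2 CPM in any fibroblast library and 55.1 CPM (4 UMIs) in the highest lymphocyte library. Smooth muscle held 84.7% ± 2.27 of its UMIs in sham and 77.5% ± 1.5 in MCAO. The change of -0.25 ± 0.08 was called (edgeR, adjusted p = 0.0196). It turned to a rise of 0.61 ± 0.19 (adjusted p = 0.0288) when cells with over 5% mitochondrial UMIs were left out, which kept 58, 79 and 59 of the 348, 345 and 409 sham cells and 230, 205 and 206 of the 534, 487 and 347 MCAO cells. The part of that difference in mitochondrial share in the result was not tested. The call also ended with DESeq2 (adjusted p = 0.163), with a doubled doublet rate (0.0561) and without sham replicate 2, MCAO replicate 1 or MCAO replicate 2 (0.058 to 0.111).

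In endothelial cells and microglia, Tgfb3 passed the count filter at 1.71 ± 0.737 and 1.76 ± 0.562 CPM in sham and was not called in either. Those levels are 0.734% and 0.756% of the smooth muscle level. The median of the smooth muscle markers there was 0.75% and 0.725% of their smooth muscle level. Oligodendrocytes measured 10.5, 2.29 and 4.25 CPM in sham and 11.7, 12.7 and 9.90 CPM in MCAO and did not pass (1.02 ± 0.42, edgeR adjusted p = 0.0824), and the rise was called without sham replicate 1 (adjusted p = 0.0228).

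Inhba codes for the subunit of activin A, a ligand of the same family that signals through its own receptors and the same Smads (chr13:16011851-16031621, plus strand). It was highest in smooth muscle in both groups, with 54.6, 66.0 and 47.5 CPM in sham and 28.4, 33.5 and 51.8 CPM in MCAO, though its libraries overlapped those of neutrophils in sham and those of monocyte-derived cells in MCAO. The smooth muscle ranges of sham and MCAO overlapped, and the change was -0.59 ± 0.18 (edgeR, adjusted p = 0.0203). That call ended with DESeq2 (adjusted p = 0.116) and without sham replicate 1, sham replicate 2, MCAO replicate 1 or MCAO replicate 2 (0.0725 to 0.138). Neutrophils held 14.3, 28.6 and 63.0 CPM in sham and 22.5, 23.4 and 17.4 CPM in MCAO, from 2 to 9 UMIs per library, too few to be tested.

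Monocyte-derived cells carried Inhba after MCAO. The 3 sham libraries held 0, 1 and 0 UMIs and the MCAO libraries 86, 87 and 35, which is 32.9, 35.0 and 15.5 CPM. The ratio of MCAO to sham was 25.0, with an exact 95% interval of 4.44 to 992 that covers counting error only. The gene was called higher (edgeR, adjusted p = 0.00129). With 1 UMI in sham it passed the count filter only through the MCAO libraries, so the call adds nothing to these counts. All 208 MCAO UMIs came from 84 cells of cluster 13, led by Arg1, Lyz2 and Thbs1, which held 1140 MCAO cells and 0 sham cells. Cluster 19, led by Plac8 and Ly6c2, was the only monocyte-derived cluster with sham cells (138, beside 278 from MCAO) and held 1 Inhba UMI in sham and 0 in MCAO. In pericytes, Inhba stood at 5.38, 2.07 and 60.1 CPM in the MCAO libraries, and the high value came from 29 UMIs in 1 cell.

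Tgfbr1, the type I receptor (chr4:47353222-47414931, plus strand), was the member with the steepest fall in microglia. It measured 590.1, 588 and 589 CPM in the sham libraries and 161, 162 and 169 CPM in MCAO. The change was -1.84 ± 0.05 (edgeR, adjusted p = 5.109e-17). In sham, microglia stood at 589 ± 1.20 CPM, and fibroblasts came next at 86.6 ± 14.1 CPM. After MCAO microglia were still highest, at 164 ± 4.61 CPM, with fibroblasts at 53.8 ± 13.6 CPM and no overlap between them. Microglia held 83.0% ± 0.948 of all Tgfbr1 UMIs in sham and 62.6% ± 0.438 in MCAO.

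Border macrophages also lost Tgfbr1, from 66.0, 54.1 and 65.8 CPM to 36.4, 41.9 and 37.8 CPM (-0.68 ± 0.18, edgeR adjusted p = 0.00397), a call that ended with DESeq2 (adjusted p = 0.0559). The naming markers of microglia fell alongside in this class, 10 of 10 tested, from a summed level of 4099 to 4566 CPM in sham to 2857 to 2977 CPM in MCAO. Their part in the fall was not tested. In monocyte-derived cells and in astrocytes Tgfbr1 did not pass (0.15 ± 0.26 and -0.01 ± 0.21). At a clustering resolution of 0.5 the first fell (-0.80, edgeR adjusted p = 0.0011) and the second rose (0.63, adjusted p = 0.00698). Endothelial cells went from 34.2 ± 0.546 to 30.6 ± 0.911 CPM (-0.16 ± 0.07, edgeR adjusted p = 0.0686), which was called with the stricter mitochondrial limit (0.0449) and with a doubled doublet rate (0.0217). The change in microglia differed from that in endothelial cells by -1.63 ± 0.07 (edgeR interaction, adjusted p = 4.467e-22) and from that in astrocytes by -1.86 ± 0.21 (adjusted p = 2.291e-11). The microglia and astrocyte fit called 7 of 10 members, beside 24.9% of all genes.

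Tgfbr2, the type II receptor that binds the ligand first (chr9:116084293-116175360, minus strand), fell in both brain macrophage classes. Microglia went from 112, 112 and 102 CPM in sham to 67.1, 63.3 and 66.8 CPM in MCAO (-0.72 ± 0.06, edgeR adjusted p = 5.463e-09). Border macrophages, the highest class in sham, went from 136, 132 and 133 CPM to 83.1, 84.7 and 61.0 CPM (-0.80 ± 0.14, edgeR adjusted p = 1.462e-05). In both classes every MCAO library lay below every sham library. Endothelial cells measured 88.2, 89.5 and 94.3 CPM in sham and 98.7, 85.1 and 94.3 CPM in MCAO, overlapping ranges and no call (0.03 ± 0.06, adjusted p = 0.676). They took the first place in the order of levels after MCAO at 92.7 ± 6.92 CPM, within the range of fibroblasts at 88.9 ± 25.1 CPM.

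Eng, or endoglin, the coreceptor of endothelium whose loss causes hereditary haemorrhagic telangiectasia (chr2:32646595-32682669, plus strand), marked endothelial cells. They measured 686, 664 and 644 CPM in sham and 667, 651 and 710.3 CPM in MCAO (0.02 ± 0.04, edgeR adjusted p = 0.673). The clusters did not move together: cluster 0 alone fell by 0.29 ± 0.06 (edgeR, adjusted p = 0.00184), while cluster 1 alone, with 77 sham cells, rose by 0.54 ± 0.16 (adjusted p = 0.0478) and cluster 11 alone by 0.33 ± 0.11 (adjusted p = 0.0262). Clusters 3 and 21 did not pass (-0.12 and 0.21), and in cluster 21 alone 0 of 4 members were called, where 7.88% of genes were, with 0 of 4 at an unadjusted p under 0.05. Pericytes stood second, at 273 ± 38.8 CPM in sham and 215 ± 26.9 CPM in MCAO, and did not pass (adjusted p = 0.21). Microglia fell from 105, 106 and 114 CPM to 70.7, 73.8 and 58.1 CPM (-0.68 ± 0.08, edgeR adjusted p = 7.987e-07). Endothelial naming markers in microglia moved the same way, 5 of 12 lower and 1 higher, with a summed level of 1443 to 1780 CPM in sham and 1061 to 1363 CPM in MCAO. Their part in the Eng result was not tested.

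Smad3, which carries the TGF-beta signal into the nucleus (chr9:63646767-63757994, minus strand), was a low transcript in this 3' data, at most 33.5 CPM in any class and library. Microglia went from 20, 17.6 and 15.2 CPM, or 83 to 99 UMIs per library, to 8.03, 10.6 and 10.4 CPM (-0.87 ± 0.15, edgeR adjusted p = 5.502e-05), with no overlap. Of the 12 classes, 4 had enough counts to test it, and endothelial cells (8.89 ± 0.861 and 8.34 ± 0.184 CPM), smooth muscle and choroid plexus epithelium did not pass.

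Smad7, the inhibitory Smad, was highest in microglia and next highest in oligodendrocytes in both groups, with overlapping library ranges in MCAO. In microglia it went from 247, 206 and 208 CPM to 136, 154 and 174 CPM (-0.51 ± 0.11, edgeR adjusted p = 0.00451). The fall did not pass when the low-scoring microglia cluster was left out (-0.15 ± 0.09, adjusted p = 0.174), and within clusters 2 and 4 alone the estimates were above 0 (0.29 and 0.10) without a call. Smad7 rose in 3 classes. Endothelial cells went from 62.9, 57.9 and 59.8 CPM to 66.9, 70.5 and 74.2 CPM (0.23 ± 0.06, edgeR adjusted p = 0.00396), with estimates of 0.10, 0.08, 0.05 and 0.17 in clusters 0, 3, 11 and 21 alone and 1.19 ± 0.51 in cluster 1 alone (edgeR, adjusted p = 0.318), none called. Oligodendrocytes went from 109.7, 107 and 83.0 CPM to 109.5, 134 and 150.2 CPM (0.39 ± 0.13, edgeR adjusted p = 0.028), with MCAO replicate 1 inside the sham range. Border macrophages went from 6.00, 4.16 and 7.59 CPM, or 3 to 6 UMIs, to 13.1, 14.9 and 13.7 CPM (1.20 ± 0.41, edgeR adjusted p = 0.0243). Smad7 passed the count filter in that class only through its MCAO counts.

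The oligodendrocyte call ended with DESeq2 (adjusted p = 0.173), with a stricter mitochondrial limit (0.0874) and without sham replicate 3, MCAO replicate 2 or MCAO replicate 3 (0.0758 to 0.239). The border macrophage call ended with DESeq2 (0.179) and without sham replicate 1, sham replicate 2 or MCAO replicate 1 (0.0567 to 0.127). The change in microglia differed from that in endothelial cells by -0.68 ± 0.07 (edgeR interaction, adjusted p = 7.461e-11).

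Microglia were not a uniform class, and their members' levels differed by cluster. Cluster 2 held 94.8% of sham microglia (5622 cells) and 2.59% of MCAO microglia (155 cells). Cluster 4, with C1qa and the chemokine genes Ccl4, Ccl12 and Ccl3 among its leading genes, held 4.97% of sham (295 cells) and 60.1% of MCAO microglia. Cluster 9, led by Lpl and Spp1 with a low microglia marker score of 0.322, held 37.3% of MCAO microglia and 15 sham cells. Tgfbr1 stood at 629 ± 9.27 CPM in cluster 2 of sham, 194 ± 4.37 CPM in cluster 4 of MCAO and 87.7 ± 8.07 CPM in cluster 9 of MCAO. Tgfbi ran the other way, at 25.9 ± 1.34, 85.8 ± 2.41 and 259 ± 25.8 CPM.

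Fitted alone, cluster 4 kept 4 of 8 members past the threshold, where 15.3% of all genes were called. Tgfbr1 went from 442, 492 and 444 CPM in its sham cells to 199, 194 and 190.3 CPM in its MCAO cells (-1.21 ± 0.08, edgeR adjusted p = 1.32e-10). Tgfb1 fell by 0.57 ± 0.12 (edgeR, adjusted p = 0.00151), Tgfbr2 fell by 0.46 ± 0.15 (adjusted p = 0.033) and Tgfbi rose by 2.35 ± 0.23 (adjusted p = 1.027e-07). Eng, Smad3, Smad7 and Tgfb2 did not pass there. In cluster 2 alone only Tgfbr2 was called of 8 members (-0.85 ± 0.25, edgeR adjusted p = 0.0386), where 2.92% of genes were called. Tgfbr1 in the 155 MCAO cells of that cluster stood at 536, 565 and 544 CPM, below the sham libraries' 620, 629 and 638 CPM, without a call (-0.24 ± 0.11, adjusted p = 0.266).

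The naming markers of microglia moved in the same direction as Tgfbr1: 10 of 11 were lower after MCAO and 1 was higher, and their summed level went from 30660 to 33150 CPM in sham to 13650 to 14680 CPM in MCAO. Across the 24 profiles of 12 classes in 2 groups, the genes whose log2 level was most like that of Tgfbr1 included the microglia markers Tmem119 (Pearson r = 0.95) and Cx3cr1 (0.900), of 10942 genes compared. These profiles share libraries, and the r values are descriptions without a test.

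**Figure D3:**
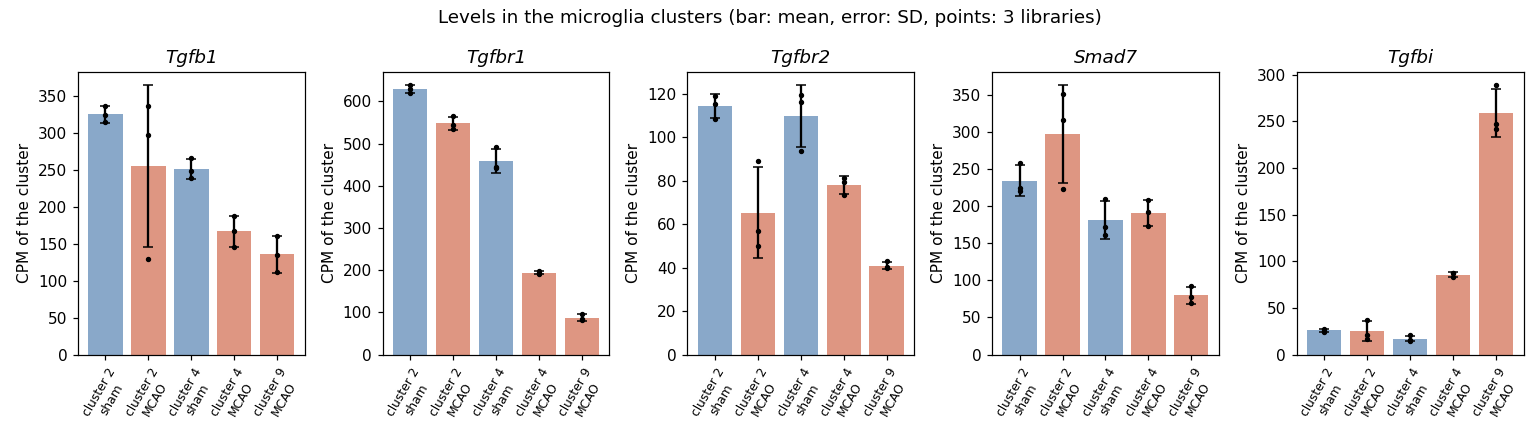
Levels of 5 members in the 3 microglia clusters, in CPM of the cluster. Bars are means, error bars SDs and points the 3 libraries of a group, sham in blue and MCAO in red; cluster 9 is shown for MCAO only, since it held 15 sham cells. Tgfbr1 steps down from cluster 2 to cluster 9 and Tgfbi steps up, while the Smad7 bars of cluster 4 are alike in both groups.

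Tgfbi is a secreted matrix protein first found as a TGF-beta-induced gene and strongly made by monocytes and macrophages (chr13:56609523-56639562, plus strand). It was called higher in 10 of the 11 classes where it could be tested. In astrocytes, smooth muscle and choroid plexus epithelium, sham held 10, 12 and 22 Tgfbi UMIs. The gene passed the count filter there only through its MCAO counts, so that tally depends in part on the gene being high after MCAO. In monocyte-derived cells, where the border macrophage markers rose as given above, it went from 450.1, 475 and 513 CPM to 1382, 1392 and 1544 CPM (1.58 ± 0.09, edgeR adjusted p = 2.341e-11). Cluster 13, present in MCAO libraries only, held 1512 ± 111 CPM. Cluster 19 alone went from 487 ± 35.3 to 525 ± 86.1 CPM and did not pass (0.15 ± 0.14, edgeR adjusted p = 0.547). Tgfb1 was still called in cluster 19 alone (0.73 ± 0.22, adjusted p = 0.0292), 1 of 4 members tested, where 12.3% of genes were called. A doubled doublet rate left 0 monocyte-derived cells in each sham library, so neither the class nor this cluster could be tested at that rate.

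In the other myeloid classes and in pericytes Tgfbi rose as well. Microglia went from 23.4, 25.4 and 23.6 CPM to 159, 155 and 181 CPM (2.77 ± 0.08, edgeR adjusted p = 1.666e-16). Border macrophages went from 454, 416 and 421 CPM to 665, 614 and 720.0 CPM (0.63 ± 0.08, edgeR adjusted p = 5.417e-08). Neutrophils went from 135, 150.4 and 105 CPM to 174, 228 and 294 CPM (0.84 ± 0.25, edgeR adjusted p = 0.0157), a call that ended with DESeq2 (0.0915) and without sham replicate 3 or MCAO replicate 3 (0.0646 to 0.0959). A doubled doublet rate left 0 neutrophils in each sham library, so the rise could not be tested at that rate. Pericytes went from 89.2, 95.2 and 104 CPM to 192, 207 and 251 CPM (1.15 ± 0.22, edgeR adjusted p = 0.00018), which ended with a doubled doublet rate (0.57, adjusted p = 0.251). In each of these classes the groups did not overlap. Fibroblasts, the highest class in sham at 485 ± 12.5 CPM, stood at 364 ± 27.8 CPM in MCAO, with no overlap and no call (-0.40 ± 0.16, adjusted p = 0.214).

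In 5 further classes Tgfbi was called higher at low levels. Endothelial cells went from 4.01, 2.54 and 3.83 CPM to 26.2, 25.1 and 20.9 CPM (2.80 ± 0.15, edgeR adjusted p = 1.411e-11). Astrocytes (3.64 ± 1.83 to 25.2 ± 2.40 CPM), smooth muscle (3.12 ± 1.27 to 19.2 ± 2.95), choroid plexus epithelium (3.21 ± 2.42 to 17.9 ± 2.79) and oligodendrocytes (13.8 ± 0.148 to 25.7 ± 4.42) were called as well. The oligodendrocyte call ended with DESeq2 (adjusted p = 0.125), with a doubled doublet rate (0.0801), with a stricter mitochondrial limit (0.0607) and without MCAO replicate 1 (0.0595).

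The levels after MCAO in these 5 classes were 1.24% to 1.78% of that in monocyte-derived cells. The median over the markers of monocyte-derived cells in the same classes was 0.734% to 0.974% of their level there. Those 10 markers rose in the same libraries: in endothelial cells 8 of 10 tested were called higher, with a summed level of 136 to 191 CPM in sham and 284 to 410 CPM in MCAO, and in smooth muscle 5 of 5 tested, with 85.9 to 142 CPM and 255 to 369 CPM. In microglia, 6 of 10 were called higher (483 to 500 CPM and 1092 to 1217 CPM), and Tgfbi there stood at 11.5% of the monocyte level beside a marker median of 1.20%. The part of RNA from monocyte-derived cells in these rises was not tested.

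**Figure D4:**
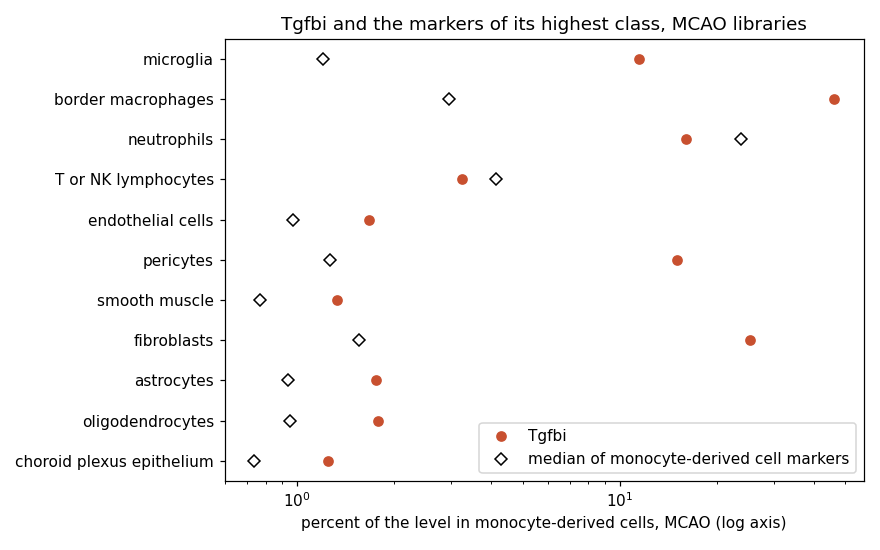
Level of Tgfbi in 11 classes of the MCAO libraries (red circles) and the median level of the monocyte-derived cell markers (open diamonds), each as a percentage of the level in monocyte-derived cells, on a log axis. In microglia, border macrophages, pericytes and fibroblasts Tgfbi lies well above the marker median, while in endothelial cells, smooth muscle, astrocytes, oligodendrocytes and choroid plexus epithelium the circle lies at 1.24% to 1.78% and the diamond below 1%.

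Promoters are printed for the members with the largest called rise (Tgfbi in both) and the largest called fall (Tgfbr1 and Tgfb2) in microglia and endothelial cells, so that the sequence can be read beside the values above. Inhba, which rose more in monocyte-derived cells from 1 sham UMI, is not printed. They come from RefSeq (GRCm38.p6), 5' to 3' on the strand of the gene and ending at the base before the gene's annotated start, with capitals marking the short Smad-binding element CAGAC on either strand (GTCTG is its reverse complement). The promoter table matched 8 of the 10 members.
Tgfbi, chr13:56609336-56609522, plus strand, 187 bases: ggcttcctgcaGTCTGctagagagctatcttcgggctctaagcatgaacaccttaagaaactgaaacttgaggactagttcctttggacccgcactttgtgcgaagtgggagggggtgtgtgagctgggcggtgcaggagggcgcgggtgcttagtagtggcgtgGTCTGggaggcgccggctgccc
Tgfb2, chr1:186705990-186706239, minus strand, 250 bases: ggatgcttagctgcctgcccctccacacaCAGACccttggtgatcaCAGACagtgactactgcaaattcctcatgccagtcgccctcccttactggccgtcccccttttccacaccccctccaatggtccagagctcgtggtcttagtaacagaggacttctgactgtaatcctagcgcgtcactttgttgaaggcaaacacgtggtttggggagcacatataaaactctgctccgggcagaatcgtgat
Tgfbr1, chr4:47352972-47353221, plus strand, 250 bases: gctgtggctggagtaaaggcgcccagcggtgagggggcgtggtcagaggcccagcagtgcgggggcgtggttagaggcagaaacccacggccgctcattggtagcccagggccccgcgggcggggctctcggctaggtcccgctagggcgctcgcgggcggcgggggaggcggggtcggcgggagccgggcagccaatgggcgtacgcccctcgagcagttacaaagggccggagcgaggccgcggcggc
Tgfbi and Tgfb2 each held 2 copies of CAGAC and Tgfbr1 held 0. Over the 250 upstream bases of 32851 promoters, 42.2% held CAGAC. None of the 3 held the Smad palindrome GTCTAGAC (0.167% of promoters) or the AP-1 motif TGANTCA (6.75%). Tgfbr1 had the promoter richest in G and C, at 74.8%, beside 59.4% for Tgfbi and 53.6% for Tgfb2.

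The rest of the pathway was read from a list of 51 further genes. In microglia, 17 were higher and 9 lower of 42 tested, in a class where 30.0% of all tested genes were called higher and 31.8% lower. The median change was 0.09 beside -0.04 over all tested genes. By role, members included, 5 of 10 receptors were lower and 1 (Acvrl1) higher. Of 5 tested receptor and common Smads, 3 were lower (Smad3, Smad1 and Smad4) and 0 higher. Of 9 inhibitors of the signal, 5 were lower and 2 higher, and of 13 targets, 10 were higher and 0 lower. The list sets no expected direction for a target, so these counts do not measure the strength of the signal. The target group holds genes that answer to several stresses, and the highest of them in microglia were Cdkn1a, a cell cycle inhibitor (62.4 ± 3.07 to 583 ± 25.8 CPM, 3.23 ± 0.06), Id2, a transcriptional inhibitor (217 ± 9.83 to 1612 ± 91.4 CPM, 2.89 ± 0.06), and Klf10 (16.5 ± 1.36 to 54.0 ± 2.68 CPM, 1.71 ± 0.10). The lowest were Pmepa1, which inhibits TGF-beta signalling and is itself induced by it (200.5 ± 5.24 to 69.0 ± 3.11 CPM, -1.54 ± 0.05), Smad1 (-0.90 ± 0.10) and the corepressor Ski (-0.78 ± 0.06). Cdkn1a and Id2 were also called higher in clusters 2 and 4 fitted alone (Cdkn1a 1.85 and 1.35, Id2 0.76 and 0.43), and Pmepa1 lower in cluster 4 (-1.03) but not in cluster 2 (-0.38). Klf10 (0.80 in cluster 2 and -0.08 in cluster 4), Smad1 (-0.56 and 0.10) and Ski (-0.30 and -0.15) were called in neither cluster (edgeR, adjusted p = 0.578 to 0.888).

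Endothelial cells had 19 of 44 listed genes higher and 11 lower, where 24.6% of all tested genes were called higher and 22.5% lower, with a median of 0.13 beside -0.02 overall. Of 8 latency and activation genes, 6 were higher and 0 lower, and of 10 receptors 3 were lower and 0 higher. Cdkn1a rose (355 ± 21.3 to 1076 ± 28.4 CPM, 1.6 ± 0.04), as did the basement membrane collagen Col4a1 (144 ± 4.59 to 343 ± 14.1 CPM, 1.26 ± 0.04) and Junb (916 ± 4.81 to 1451 ± 46.4 CPM, 0.66 ± 0.04). The coreceptor Tgfbr3 fell (37.4 ± 3.39 to 21.4 ± 2.81 CPM, -0.81 ± 0.10), with Pmepa1 (-0.75 ± 0.07) and the cell cycle inhibitor Cdkn2b (116 ± 3.23 to 73.0 ± 5.59 CPM, -0.67 ± 0.06). These falls were called in none of the 4 clusters in which each gene was tested alone (0, 1, 3 and 11). Tgfbr3 measured -0.52, -0.81, -0.60 and 0.76 there, Pmepa1 0.06, -0.19, -0.01 and -0.18, and Cdkn2b -0.04, 0.55, 0.14 and 1.39, the last a called rise (edgeR, adjusted p = 0.00773). Junb rose in clusters 0, 1, 3 and 21 alone and fell in cluster 11 (-0.54, edgeR adjusted p = 2.33e-06). Col4a1 was called in clusters 3 and 11 (0.45 and 0.94) and not in clusters 0, 1 and 21 (0.23, 0.60 and 0.48), and Cdkn1a was called in all 5.

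Monocyte-derived cells had 11 of 25 listed genes higher and 1 lower, beside 14.9% and 14.1% of all tested genes. Among them was Thbs1, thrombospondin, which can release latent TGF-beta; it went from 17.2, 35.6 and 28.5 CPM to 781, 645 and 696 CPM (4.68 ± 0.18, edgeR adjusted p = 1.413e-14), in a class whose cluster 13 had Thbs1 among its leading genes and 0 sham cells. In cluster 19 alone it rose by 2.33 (edgeR, adjusted p = 1.38e-06). Tgif1, a corepressor of Smads, rose in the class as well (2.26 ± 0.26), and so did Cdkn1a (2.20 ± 0.13). None of these rises could be tested with a doubled doublet rate, which left 0 monocyte-derived cells in each sham library. Border macrophages had 9 of 24 higher and 3 lower, beside 16.0% and 13.5%, with Cdkn1a (3.15 ± 0.10), Id2 (1.94 ± 0.10) and fibronectin Fn1 (1.49 ± 0.19) the highest and Pmepa1 (-1.12 ± 0.21) and Ski (-0.61 ± 0.21) the lowest. The Ski call ended with DESeq2 (adjusted p = 0.173), without the count filter (0.0572) and without sham replicate 2, sham replicate 3, MCAO replicate 1 or MCAO replicate 3 (0.0586 to 0.17).

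Pericytes had 9 of 20 listed genes higher and 2 lower, beside 8.21% and 6.49% of all tested genes, led by Tgif1 (2.70 ± 0.65, from 3 sham UMIs) and Cdkn1a (2.64 ± 0.26). Tgif1 passed the count filter there only through its MCAO counts, and its call ended without sham replicate 3 (2.0, edgeR adjusted p = 0.0626). Astrocytes had 9 of 31 higher and 1 lower, beside 9.50% and 7.12%, led by Cdkn1a (2.99 ± 0.14), Nrros, which anchors latent TGF-beta on myeloid cells (24.8 ± 3.96 to 62.8 ± 5.64 CPM, 1.33 ± 0.18), and Id2 (0.33 ± 0.06). Nrros in astrocytes stood at 17% of its level in border macrophages after MCAO, beside a median of 0.614% for the markers of that class. Only that class was used in this comparison. The part of RNA from microglia, 21.5% of kept MCAO cells, was not tested. Smooth muscle had 16 of 38 higher and 2 lower, beside 11.2% and 9.57% of all tested genes. Choroid plexus epithelium had 13 of 34 higher and 1 lower, beside 7.25% and 6.49%. Neutrophils had 9 of 12 higher and 1 lower, beside 14.2% and 12.5%. Oligodendrocytes had 7 of 23 higher and 1 lower, beside 11.2% and 9.82%. Fibroblasts had 3 of 25 higher and 1 lower, beside 1.93% and 1.67%. Lymphocytes had 1 of 9 higher and 0 lower, beside 1.52% and 1.82%.

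The genes with the most similar profiles were found by the same measure over 24 profiles. For Eng and Tgfb3 they included genes of the class that carried the member. For Eng they were the endothelial genes Abcg2 (r = 0.940), Emcn (0.933) and Tmem204 (0.931), and for Tgfb3 Pde3a (0.927) and the smooth muscle genes Mylk (0.909) and Tpm2 (0.902). Tgfb1 was nearest to Rap1b (0.929), Tgfb2 to Crip2 (0.888), Tgfbr2 to Xlr (0.921), Tgfbi to Ftl1 (0.827), Smad3 to Chst15 (0.805), Smad7 to Cebpz (0.802) and Inhba to Crispld2 (0.820). Between members, r was highest for Tgfbr2 with Tgfb1 (0.687), followed by Tgfbr1 with Tgfb1 (0.660) and Eng with Tgfbr2 (0.645), and lowest for Tgfbi with Tgfb2 (-0.631).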

How the data were processed

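Per the labels' protocols, papain digestion of brain (30 min, 37 °C) was followed by a 40 µm strainer, 30% Percoll and a Chromium Single Cell 3' kit. The submitters' processing notes name Cell Ranger, STAR and mm10; versions and annotation were not given in the sources used here. Raw UMI counts were deposited by the authors, 1 matrix for each library. The members, lists and tests were chosen with earlier results of these data known.

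Barcodes with under 300 genes, over 10% mitochondrial UMIs or called as doublets (0.8% per 1000 barcodes, by simulated pairs; 6.48% to 9.42% per library) were removed. Clusters (2000 variable genes, 30 components, 20 neighbours, Leiden resolution 1.0) gave 29 clusters, 7 left unnamed. A name needed 3 markers detected in 25% of cells. The rules for clusters with markers of a second class, or led by another class's markers, were set after seeing the clusters; the last left out 557 endothelial-like cells (1.93% of sham cells ± 0.17 as SD over 3 libraries, and 0.28% ± 0.0636 in MCAO). Of the members, 5 (Tgfb2, Tgfb3, Tgfbr1, Tgfbi and Smad7) were among the variable genes. Unnamed clusters, and ependymal cells (0 in MCAO replicate 2), were not tested.

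Counts were summed per library and class, given 20 or more cells in each library, and tested with edgeR 4.0.16 (filterByExpr, TMM, quasi-likelihood); DESeq2 1.42.0 was an alternative. Data were simulated from the microglia means and library sizes (11538 genes), with the same fixed dispersion for every gene and changes set only in genes above a low level. Of these changes, 95 of 100 of log2 size 1 and 100 of 100 of size 2 were recovered, with 5 false calls. This recovery does not describe shallower classes or genes with a wider spread. Named pathway genes were the 3 highest and 3 lowest called in 6 classes, with at least 20 CPM, no overlap of groups and at least 10% of their level in the highest class. Ltbp4 and Tgfb1i1 share their symbol with another row and are not reported. A few other genes that these rules select are not reported here. Gene positions are from GENCODE vM21.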

Additional observations from a re-analysis of the deposited data

Results flagged for a closer look

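For 15 results, the change after MCAO differed between classes by edgeR's interaction test (adjusted p under 0.05); 3 pairs of classes were compared. Against endothelial cells, the log2 change in microglia was lower for Tgfbr1 by -1.63, Tgfb1 by -0.90, Smad3 by -0.71, Tgfbr2 by -0.70, Smad7 by -0.68 and Eng by -0.65, and higher for Tgfb2 by 0.97. Eng and Smad3 were those with the largest adjusted p-values, 0.0157 and 0.0026. Against astrocytes, the change in microglia was lower for 7 members: Tgfbr1 (-1.86), Smad3 (-1.31), Tgfbr2 (-1.05), Smad7 (-1.02), Tgfb1 (-0.99), Tgfb2 (-0.98) and Eng (-0.67). Smad3 was below the count filter in astrocytes alone, so its difference rests on 15 sham UMIs there. Between endothelial cells and astrocytes, Tgfb2 alone differed (-1.89). Tgfbi, which was called higher in all 3 of these classes, did not differ between microglia and endothelial cells beyond its SE (0.03 ± 0.27, edgeR adjusted p = 0.949).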

How the results depend on the processing

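Replicate numbers are shared by the groups but do not pair the libraries: same-numbered libraries' deviations correlated between -0.14 and 0.06. With the replicate block, every class kept the same number of called members within 1.5 times (8 in microglia, 5 in border macrophages, 4 in smooth muscle, 3 in endothelial cells), as with RLE size factors and with the pathway genes left out of clustering. The number of called members moved in these cases: lymphocytes 1 without the filter; astrocytes 4 at resolution 0.5; border macrophages 2 with DESeq2; neutrophils 0 with DESeq2; oligodendrocytes 0 with DESeq2, 0 with the 5% mitochondrial limit and 1 with the doublet rate doubled; pericytes 0 with the doublet rate doubled; smooth muscle 1 with DESeq2 and 2 with the 5% limit. Leaving out 1 library each gave 3 to 5 in border macrophages, 1 to 2 in choroid plexus and in pericytes, 0 to 1 in neutrophils, 1 to 3 in oligodendrocytes, 1 to 4 in smooth muscle, 7 to 8 in microglia, 3 to 4 in endothelial cells, 2 to 3 in monocyte-derived cells, 7 in all kept cells, 1 in astrocytes and 0 in fibroblasts and lymphocytes. Turned directions are listed only where the gene was called in the main fit or under the alternative. Directions turned for Tgfb3 in smooth muscle with the 5% limit (0.61), and at resolution 0.5 for Tgfbr1 in astrocytes (0.63) and monocyte-derived cells (-0.80). Within single clusters, chosen after seeing the data, they turned for Eng (endothelial cluster 0, -0.29), Tgfb1 (endothelial cluster 11, -0.98), Smad3 (microglia cluster 4, 0.041), Smad7 (clusters 2 and 4, 0.29 and 0.10), Tgfbi (cluster 2, -0.089), Klf10 and Smad1 (cluster 4, -0.078 and 0.10), Pmepa1 (endothelial cluster 0, 0.056), Cdkn2b (clusters 1, 3 and 11, 0.55, 0.14 and 1.39), Junb and Tgfbr3 (cluster 11, -0.54 and 0.76). The cause was not tested. Putting the 557 left-out cells back left 3 endothelial calls. At resolution 0.5 neutrophils were unnamed. With the doublet rate doubled, lymphocytes, fibroblasts, monocyte-derived cells and neutrophils had too few cells to be tested. Monocyte-derived cells and neutrophils then kept 0 cells in each sham library. Of 1217 single changes of members under alternatives, 1134 kept their side of the threshold. They also kept direction where the gene was called in the main fit or under the alternative. Where it was called in neither, a turned direction was not counted. Depth limits Inhba, Smad3 and Tgfb3 outside their main classes.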
